A study of Mus musculus with 18 samples.

Results

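The 10 genes Pttg1, Fn3krp, Gm6958, 2610507I01Rik, Zfp39, Csf2rb, Lars2, Capn7, Abcb10 and B9d1 were followed in a mouse Tbx1 allelic series because their signals tracked the number of Neo alleles. They are 10 of 18193 measured genes, and all 22 probe sets that carry one of these symbols alone, of 45037 in all, were read. The material was RNA of 18 whole embryos of embryonic day 9.5, on a mixed 129SvEv and C57Bl/6 background. Each embryo was hybridised to its own Affymetrix Mouse Genome 430 2.0 array, and each of 9 genotypes had 2 embryos. The genotypes with a Neo allele were Neo/+ and Neo2/Neo, each with 1, and Neo/Neo with 2 (6 arrays). Those without it were Tbx1-/-, Neo2/-, Neo2/Neo2, Tbx1+/-, Neo2/+ and wild type (WT), with 12 arrays. All 18 embryos share the mixed background, the day and the tissue, and the labels say nothing of litters.

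Tbx1 is a transcription factor with a T-box DNA-binding domain. In the pharyngeal apparatus of the embryo it acts in the mesoderm, endoderm and surface ectoderm that shape the arch arteries, outflow tract, thymus and parathyroids. Neo and Neo2 are engineered alleles that leave part of the function of Tbx1, and the null allele leaves none, so the genotypes form a series of falling dosage. The 10 genes do not form a pathway. They include the gene of securin, which holds back the separation of sister chromatids, genes of a mitochondrial tRNA synthetase and a mitochondrial transporter, a protein of the ciliary base and a cytokine receptor subunit.

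The choice used the signals themselves: a gene was taken because its signal differed with the number of Neo alleles. Differences between embryos with and without Neo, and slopes per Neo allele, are therefore given as a description without a test. The 12 arrays without Neo were the other side of that choice, which bears on every comparison among them. All signals are log2 values, so a difference of 1 is a doubling of the signal, and levels are not compared between genes. The medians of the arrays ran from 5.73 to 5.94, and 6 of the 22 probe sets had a mean below every one of them. A signal that low cannot be told from background, since the values carry no detection call, and a difference that ends there has no known size.

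The Tbx1 probe set, which checks the labels, read 5.04 and 5.20 in Neo/Neo and 4.98 and 5.16 in -/-, against 6.54 and 6.63 in WT. Neo2/Neo (5.65 and 5.67) and Neo2/- (5.61 and 5.81) lay between, and Neo/+, Neo2/Neo2, +/- and Neo2/+ ran from 6.13 to 6.62. Tbx1 was lower in -/- than in WT by a difference of -1.52 (SE 0.14, limma adjusted p = 0.0030, n = 2 embryos each). The values of Neo/Neo and -/- lie below every array median, so whether Tbx1 differed between these genotypes cannot be told. Those of Neo2/Neo and of Neo2/- replicate 1 lie there too, so their place between is as measured only. The difference of -1.52 ends at such a level, so its true size is not known. Globin genes of primitive red cells (Hbb-bh1, median 14.23), the heart gene Myh6 (9.87) and the neural gene Sox2 (10.74) had high signals. The arrays of -/- replicate 1 and +/- replicate 1 resembled the series less, with a median correlation to the remaining arrays of 0.985 and 0.975, against 0.991 to 0.995 elsewhere. Values in -/- are given for each replicate, and Abcb10, where +/- replicate 1 was the lowest array without Neo, is given with and without that array.

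The stretches of promoter in front of Zfp39, 2610507I01Rik and Fn3krp are shown because in these 3 genes the arrays with and without Neo did not overlap at the brightest probe set. Each is the 250 bases before the annotated start, 5' to 3' on the gene's strand, from RefSeq on build GRCm38.p6. All lie on chromosome 11. Capitals mark the letters CCAAT on either strand, the core of the CCAAT box of many promoters.
Zfp39 (chr11:58904226-58904475, minus strand): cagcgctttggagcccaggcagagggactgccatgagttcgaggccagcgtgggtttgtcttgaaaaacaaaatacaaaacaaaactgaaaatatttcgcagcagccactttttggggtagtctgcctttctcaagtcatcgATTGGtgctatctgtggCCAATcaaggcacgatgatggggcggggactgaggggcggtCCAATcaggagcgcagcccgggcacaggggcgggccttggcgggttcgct
2610507I01Rik (chr11:59202432-59202681, minus strand): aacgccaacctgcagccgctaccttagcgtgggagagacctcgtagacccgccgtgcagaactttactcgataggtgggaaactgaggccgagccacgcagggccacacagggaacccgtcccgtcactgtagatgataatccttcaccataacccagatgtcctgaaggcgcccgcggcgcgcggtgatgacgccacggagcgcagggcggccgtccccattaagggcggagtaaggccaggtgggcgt
Fn3krp (chr11:121421123-121421372, plus strand): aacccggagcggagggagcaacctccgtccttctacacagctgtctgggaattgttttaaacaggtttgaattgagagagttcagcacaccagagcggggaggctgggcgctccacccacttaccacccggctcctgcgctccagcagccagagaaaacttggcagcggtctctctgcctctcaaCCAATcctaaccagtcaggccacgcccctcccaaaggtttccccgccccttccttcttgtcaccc

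The Zfp39 stretch held 3 matches to CCAAT, the Fn3krp stretch held 1 and the 2610507I01Rik stretch held 0. Of the 10 genes 9 had a promoter in the RefSeq table, and 3 of the 9 (Zfp39, Fn3krp and Capn7) held CCAAT, against 33.8% of all 32851 promoters of that length. The T-box half-site AGGTGTGA, searched on both strands without any overlap with CCAAT, was in 0 of the 9 and in 1.12% of all promoters. These are matches of letters in this window and not sites of binding.

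Across the brightest probe set of each gene, 4 genes were higher with Neo (Pttg1, Fn3krp, Capn7 and B9d1) and 6 were lower (Gm6958, 2610507I01Rik, Zfp39, Csf2rb, Lars2 and Abcb10). The 6 arrays with Neo lay wholly above or below the 12 without it at 3 of the 22 probe sets, against 0.171% of all probe sets. With -/- replicate 1 left out, 8 of the 22 did not overlap, against 0.293% of all probe sets. The Neo term passed an adjusted p of 0.05 at 10 of the 22, against 0.0688% of all probe sets. An unadjusted p under 0.05 on that term was found at 7.01% of all probe sets. Because the genes were chosen on this contrast, nothing is read from these counts. Of the 8 genes with several probe sets, 7 had slopes of 1 sign at all of them, and Lars2 was the exception.

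**Figure D1:**
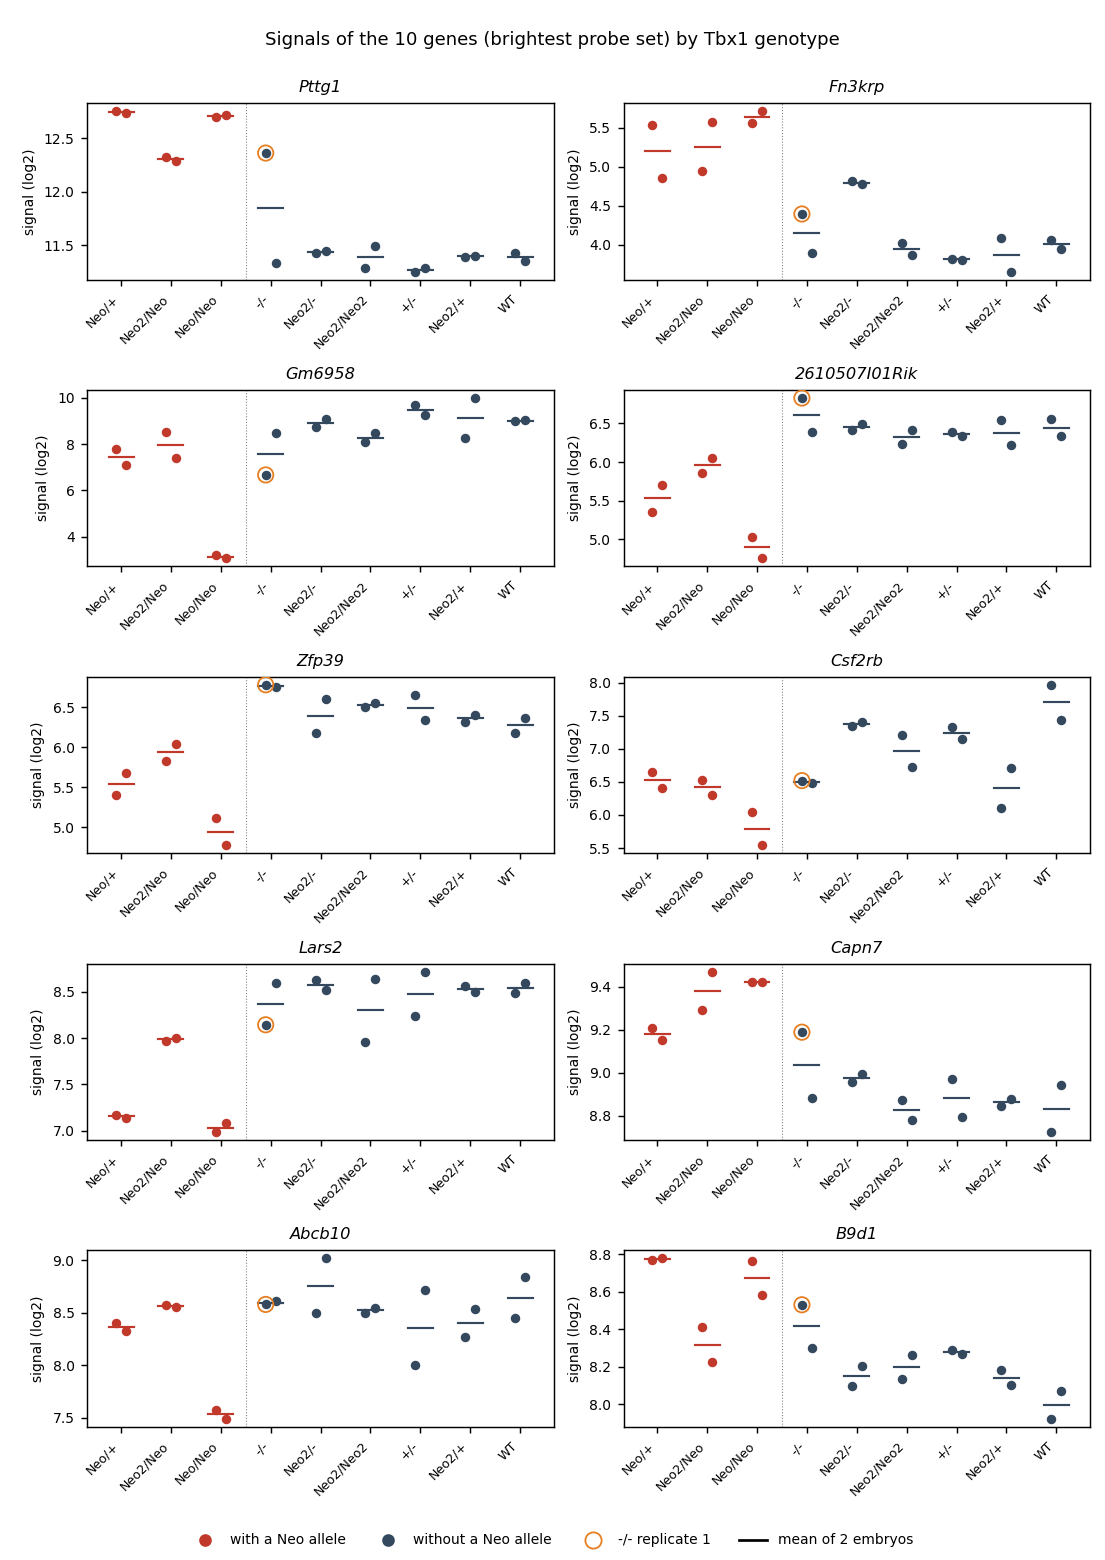
Log2 signal of the brightest probe set of each of the 10 genes (vertical axis) in the 9 genotypes (horizontal axis), with 1 point per embryo and a bar at the mean of the 2 embryos. Red points carry a Neo allele, dark points do not, and the ring marks -/- replicate 1, which for Pttg1 lies at 12.36 while -/- replicate 2 lies at 11.33.

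Pttg1 encodes securin, the inhibitor of separase that is destroyed at the start of anaphase. Its brightest probe set read 12.75 and 12.73 in Neo/+, 12.33 and 12.29 in Neo2/Neo and 12.70 and 12.72 in Neo/Neo. Without Neo it ran from 11.25 to 12.36 with a median of 11.40. The upper end was -/- replicate 1 alone, and the 11 other arrays without Neo stayed at or below 11.49, under every array with Neo. The mean was 12.59 ± 0.22 with Neo (SD, n = 6) and 11.46 ± 0.29 without it (SD, n = 12), a ratio of 2.19, and the slope was 0.77 per Neo allele (SE 0.13). Slopes of the 2 dimmer probe sets were 0.96 (SE 0.16) and 0.48 (SE 0.11).

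In Pttg1 Neo/+ was level with Neo/Neo, while Neo2/Neo was lower than both. Neo/+ embryos stood at 103% of the Neo/Neo shift, taken from the mean of the 10 arrays without Neo that are not -/-, and Neo2/Neo embryos at 70.0%. At the other probe sets the shares were 104% and 67.2%, and 124% and 50.5%. Beside a wild-type allele 1 Neo allele thus went with as high a signal as 2, and beside Neo2 it did not. These are values of arrays that the choice used and are not tested.

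The -/- embryos disagreed on Pttg1. Replicate 1 read 12.36, within the range of the arrays with Neo, and replicate 2 read 11.33, within that of the other arrays without Neo. The dimmer probe sets gave 10.68 and 9.46, and 6.68 and 6.20, in the same order. The difference of -/- from WT was 0.46 (SE 0.22, limma adjusted p = 0.357, n = 2 each). Without replicate 1 of -/- it was -0.05, and without replicate 2 it was 0.97. On -/- replicate 1 the mean of 10 myeloid markers was 5.30, that of 7 cardiomyocyte markers 9.20 and that of 10 erythroid markers 9.80, against 4.70, 10.35 and 9.02 on replicate 2. Its mean of 9 markers of dividing cells was 11.07, against 11.21 on replicate 2. The myeloid means lie below every array median, so their difference has no known size. The part of these markers in the Pttg1 value was not tested.

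No other gene of sister chromatid separation passed with Neo. Of 21 measured genes from the list of separase, cohesin subunits, checkpoint and anaphase genes, 0 passed in either direction on the Neo term (limma), with 1 at an unadjusted p under 0.05 and a median slope of 0.02, beside -0.0001 for all genes. Of all genes 0.022% passed as higher and 0.044% as lower. The cohesin gene Rad21 had the smallest p, with means of 11.61 with Neo and 11.48 without it (slope 0.10, adjusted p = 0.695). The dividing-cell markers also had 0 calls, and their mean ran from 11.07 to 11.17 with Neo and from 10.87 to 11.22 without it.

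Fn3krp encodes a kinase that phosphorylates sugar adducts on glycated proteins and so starts their removal. Its only probe set read 5.54 and 4.86 in Neo/+, 4.94 and 5.57 in Neo2/Neo and 5.56 and 5.71 in Neo/Neo. Arrays without Neo ran from 3.65 to 4.81 with a median of 3.98. Every array with Neo lay above every array without it, but the gap was narrow, since Neo/+ replicate 2 at 4.86 stood next to Neo2/- replicates at 4.81 and 4.77. The mean was 5.36 ± 0.37 with Neo (SD, n = 6) and 4.09 ± 0.37 without it (SD, n = 12), with a slope of 0.99 (SE 0.15). All these values lie below the array medians.

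At such levels the share of the Neo/Neo shift, 71.8% in Neo/+ and 75.7% in Neo2/Neo, is a rough description only. The -/- arrays read 4.39 and 3.89, both within the range of the other arrays without Neo, and the difference of -/- from WT was 0.14 (SE 0.24, adjusted p = 0.851). Neo2/- was above WT by 0.79 (SE 0.24), which did not pass (adjusted p = 0.782). Of the 4 list genes of fructosamine kinases and protein deglycation 0 passed (0 at an unadjusted p under 0.05, median slope -0.004).

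Capn7 encodes a protease of the calpain family. Its brightest probe set read 9.21 and 9.15 in Neo/+, 9.29 and 9.47 in Neo2/Neo and 9.42 and 9.42 in Neo/Neo. In the 12 arrays without Neo it ran from 8.73 to 9.19 with a median of 8.88, and -/- replicate 1 was the array at 9.19. The groups overlapped only there, and the 11 other arrays without Neo were at or below 8.99. The mean was 9.33 ± 0.13 with Neo (SD, n = 6) and 8.90 ± 0.12 without it (SD, n = 12), and the slope was 0.35 (SE 0.05). The other probe sets had slopes of 0.26 and 0.27, so the 3 probe sets lay close together.

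Neo2/Neo was at 92.8% of the Neo/Neo shift in Capn7 and Neo/+ at 55.8%, the reverse of the order in Pttg1. At the dimmer probe sets the shares were 109% and 63.1%, and 88.3% and 75.9%, so the gap was narrower at the dimmest. At the brightest probe set the -/- embryos read 9.19 and 8.88, and their difference from WT was 0.20 (limma adjusted p = 0.456). At the dimmest probe set that difference was 0.28. It was 0.07 without -/- replicate 1 and 0.48 without -/- replicate 2. Among 14 measured genes of other calpains and of their inhibitor calpastatin, 0 passed on the Neo term, with 1 at an unadjusted p under 0.05. That gene was Capn12, at 5.69 with Neo and 5.88 without it (slope -0.20, adjusted p = 0.398).

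B9d1 encodes a protein of the transition zone, the gate at the base of the cilium. Its only probe set read 8.77 and 8.78 in Neo/+, 8.41 and 8.22 in Neo2/Neo and 8.76 and 8.58 in Neo/Neo. Without Neo the values ran from 7.92 to 8.53 with a median of 8.19. Neo/+ was as high as Neo/Neo, and Neo2/Neo lay inside the range of the arrays without Neo. The upper end of that range was -/- replicate 1 alone. The other arrays without Neo reached 8.30, below Neo2/Neo replicate 1 and above Neo2/Neo replicate 2. The mean was 8.59 ± 0.23 with Neo (SD, n = 6) and 8.20 ± 0.15 without it (SD, n = 12), and the slope was 0.30 (SE 0.07).

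B9d1 was also high in both -/- embryos, at 8.53 and 8.30, which both lay above the 10 other arrays without Neo. The difference from WT was 0.42 (SE 0.11, limma adjusted p = 0.146, unadjusted p = 0.0026). It was 0.30 without -/- replicate 1 and 0.53 without -/- replicate 2. WT was the lowest genotype, at 8.00 ± 0.10 (SD, n = 2). Of 17 measured transition zone genes 0 passed on the Neo term, 0 had an unadjusted p under 0.05, and their median slope was 0.03. Tmem237 had the smallest p, at 8.86 with Neo and 8.83 without it (adjusted p = 0.748).

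Gm6958 had the widest range of the 10 genes. Its brightest probe set read 7.78 and 7.11 in Neo/+, 8.53 and 7.39 in Neo2/Neo and 3.21 and 3.05 in Neo/Neo. Without a Neo allele it ran from 6.66 to 9.99 with a median of 8.86. The Neo/Neo arrays were far below all others. The arrays with 1 Neo allele lay within the range of those without, but its low end was -/- replicate 1 alone. The other arrays without Neo started at 8.07, above both Neo/+ arrays and Neo2/Neo replicate 2. The Neo/Neo values are below every array median, so the Neo/Neo shift of -5.83 has no known true size. Neo/+ stood at 26.0% and Neo2/Neo at 17.2% of it as measured, and the slope was -2.72 (SE 0.39). The second probe set, of the kind that may catch other transcripts, had a slope of -1.37 (SE 0.21) and shares of 44.9% and 34.2%.

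The -/- embryos read 6.66 and 8.47 for Gm6958, and replicate 1 was the lowest of the 12 arrays without Neo. Their difference from WT was -1.44 (SE 0.59, limma adjusted p = 0.272). Without -/- replicate 2 the differences at the brightest and the second probe set were -2.34 and -1.72. Without -/- replicate 1 they were -0.53 at both. Gm6958 is the only one of the 10 on chromosome 16, where Tbx1 lies, with 246 measured genes between the 2.

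Zfp39, which encodes a zinc finger protein, and 2610507I01Rik lie close together on chromosome 11, with 7 measured genes between them, and their signals differed between arrays in much the same way. Zfp39 read 5.40 and 5.67 in Neo/+, 5.82 and 6.05 in Neo2/Neo and 5.11 and 4.77 in Neo/Neo, against a range of 6.18 to 6.78 without Neo (median 6.46). 2610507I01Rik read 5.35 and 5.71, then 5.86 and 6.06, then 5.04 and 4.75 in the same genotypes, against a range of 6.22 to 6.83 without Neo (median 6.40). In both genes each of the 6 arrays with Neo was below all 12 without it, and the order was Neo/Neo, Neo/+, Neo2/Neo from low to high. Over the 18 arrays, each centred on its own mean, the genes differed by 0.14 on average, and each was the nearest of all genes to the other. Since both were chosen for following Neo on these arrays, some likeness comes with the choice.

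The mean of Zfp39 was 5.47 ± 0.47 with Neo (SD, n = 6) and 6.47 ± 0.21 without it (SD, n = 12), and that of 2610507I01Rik was 5.46 ± 0.51 and 6.43 ± 0.16. The slopes were -0.62 (SE 0.08) and -0.69 (SE 0.08). Neo/+ was at 59.4% of the Neo/Neo shift for Zfp39 and at 57.6% for 2610507I01Rik. Neo2/Neo was at 32.4% and 28.9%. As measured at these probe sets, Neo/+ was a little past the middle between no Neo and Neo/Neo, and Neo2/Neo was short of it. The Neo/+ and Neo/Neo values of both genes lay below every array median, so these shares are a rough description only. The dimmer probe sets had slopes of the same sign, -0.11 for Zfp39 and -0.24 for 2610507I01Rik. The dimmer one of Zfp39 had shares of 69.5% in Neo/+ and 45.2% in Neo2/Neo. That of 2610507I01Rik had 125% and 43.1%, so there Neo/+ (4.90 and 5.23) was lower than Neo/Neo (5.09 and 5.35). Both lie below the array medians in all embryos with Neo.

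In -/- embryos neither gene was low as it was with Neo. Zfp39 read 6.78 and 6.76, the top 2 of the 18 arrays, and 2610507I01Rik read 6.83 and 6.38. The differences of -/- from WT were 0.50 (SE 0.17, limma adjusted p = 0.207) and 0.16 (adjusted p = 0.735), and neither passed. Per null allele Zfp39 had 0.22 (SE 0.08, adjusted p = 0.361).

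Lars2 encodes the synthetase that charges mitochondrial tRNA with leucine. Its brightest probe set read 7.17 and 7.14 in Neo/+, 7.97 and 8.00 in Neo2/Neo and 6.99 and 7.08 in Neo/Neo. The 12 arrays without Neo ran from 7.96 to 8.72 with a median of 8.54. Neo/+ and Neo/Neo lay together below all other arrays, and Neo2/Neo sat at the lower edge of the arrays without Neo, beside Neo2/Neo2 replicate 1 at 7.96. The mean was 7.39 ± 0.47 with Neo (SD, n = 6) and 8.46 ± 0.23 without it (SD, n = 12), and the slope was -0.72 (SE 0.12). Neo/+ was at 91.6% of the Neo/Neo shift and Neo2/Neo at 34.2%.

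A second Lars2 probe set repeated this, with a slope of -0.47 (SE 0.09) and shares of 96.5% and 32.0%. Another, dim one with a mean of 3.69 went the other way (0.14, SE 0.07). The -/- embryos read 8.14 and 8.59 at the brightest probe set, inside the range of the other arrays without Neo, and differed from WT by -0.17 (limma adjusted p = 0.763). Of 16 measured mitochondrial aminoacyl-tRNA synthetase genes 0 passed on the Neo term, with 0 at an unadjusted p under 0.05, slopes from -0.11 to 0.07 and a median of -0.01.

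Abcb10 encodes a transporter of the mitochondrial inner membrane that is needed for haem synthesis in red cells. Its brightest probe set read 8.40 and 8.32 in Neo/+, 8.57 and 8.55 in Neo2/Neo and 7.57 and 7.49 in Neo/Neo. Arrays without Neo ran from 8.00 to 9.02 with a median of 8.54, and from 8.27 without +/- replicate 1. At this probe set the Neo/Neo arrays lay below the 16 other arrays. Neo/+ was at 17.5% and Neo2/Neo at -2.5% of the Neo/Neo shift, so the mean with Neo, 8.15 ± 0.49 (SD, n = 6), was set by 2 arrays. Without Neo the mean was 8.55 ± 0.26 (SD, n = 12).

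The second Abcb10 probe set had the same form, at 5.99 and 6.20 in Neo/Neo and from 7.16 to 8.23 without Neo, with shares of 22.4% in Neo/+ and 7.5% in Neo2/Neo. The dimmest probe set read 5.57 and 5.33 in Neo/+, 5.82 and 5.75 in Neo2/Neo and 5.22 and 5.26 in Neo/Neo, against 5.48 to 6.44 without Neo. There Neo/+ was at 61.6% of the Neo/Neo shift, and Neo/+ replicate 2 too was below all arrays without Neo, at levels below the array medians. The Neo/Neo pair was male, so sex and this genotype go together in part. Among the genotypes that held both sexes, the brightest probe set differed by -0.31 in females from males (SE 0.11), which did not pass (limma adjusted p = 0.846). Without +/- replicate 1 this difference was -0.21 (SE 0.10). At the second and the dimmest probe set the sex difference was -0.22 (SE 0.14) and 0.04 (SE 0.13). At the brightest probe set the -/- embryos read 8.58 and 8.62, among the others, and differed from WT by -0.05 (limma adjusted p = 0.951). Of 12 measured genes of mitochondrial transport and haem synthesis 0 passed on the Neo term, with 1 at an unadjusted p under 0.05, the haem enzyme gene Alad, at 10.40 with Neo and 9.84 without it (adjusted p = 0.623). Erythroid markers had a mean of 9.31 to 9.81 with Neo and of 9.02 to 9.81 without it.

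Csf2rb encodes the beta subunit shared by the receptors for GM-CSF, interleukin 3 and interleukin 5. Its brightest probe set read 6.65 and 6.40 in Neo/+, 6.53 and 6.30 in Neo2/Neo and 6.04 and 5.54 in Neo/Neo. In embryos without Neo it ran from 6.10 to 7.97 with a median of 7.17. The Neo/Neo arrays were lowest, but the other arrays with Neo lay among those of -/- and Neo2/+. The mean was 6.24 ± 0.40 with Neo (SD, n = 6) and 7.03 ± 0.53 without it (SD, n = 12), and the slope was -0.79 (SE 0.17). The second probe set had a slope of -0.71 (SE 0.13).

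At the brightest probe set low Csf2rb was found in genotypes without Neo too. The -/- embryos read 6.52 and 6.48 and the Neo2/+ embryos 6.10 and 6.70, against 7.97 and 7.44 in WT, the highest of the 9 genotypes. The difference from WT was -1.20 in -/- (SE 0.24, limma adjusted p = 0.10, unadjusted p = 0.0002) and -1.30 in Neo2/+ (SE 0.24, adjusted p = 0.552, unadjusted p = 0.0001). Neither passed with all arrays. The difference in -/- was -1.22 without -/- replicate 1 and -1.18 without -/- replicate 2. This probe set of Csf2rb had the smallest p of the 22 in the F-test among the 6 genotypes without Neo (limma adjusted p = 0.224). The second probe set was dim, with a mean of 4.99, below every array median. There the -/- embryos read 5.16 and 4.89, above every array with Neo, of which the highest was 4.71. The Neo2/+ embryos read 4.66 and 4.87 there, against 5.72 and 5.49 in WT.

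The neighbouring paralogue Csf2rb2 was the gene most like Csf2rb, at a mean distance of 0.30 between centred values, with Cthrc1 close behind at 0.31. Csf2rb2 had means of 3.95 with Neo and 4.44 without it, both below every array median. Its slope was -0.41 (SE 0.12, limma adjusted p = 0.321). The sequences of the pair are close, and 1 further probe set that carries both names was left out, so their signals cannot be fully told apart. Of 11 measured genes of this receptor family 0 passed, with 3 at an unadjusted p under 0.05 and a median slope of -0.05. The 10 myeloid markers had 0 calls (0 at an unadjusted p under 0.05), and their mean ran from 4.68 to 5.28 with Neo and from 4.62 to 5.30 without it. These means lie below every array median, so they say little about myeloid cells. In whole embryos fewer cells of a type and less RNA per cell cannot be told apart.

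The measured shares of the Neo/Neo shift ran widely over the 10 genes, each from 2 embryos a genotype and none tested between genes. At the brightest probe sets Neo/+ ran from 17.5% in Abcb10 to 119% in B9d1, and 3 of 10 (Pttg1, Lars2 and B9d1) were between 80% and 120%. Neo2/Neo was under 80% in 9 of 10, and 7 of 10 had a larger share in Neo/+ than in Neo2/Neo. In 5 of the genes (Pttg1, Lars2, Capn7, Abcb10 and B9d1) the means that enter the shares all lay above every array median. Of these 5, Neo/+ was between 80% and 120% in 3, Neo2/Neo was under 80% in 4, and Neo/+ had the larger share in 4.

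Departure from additive allele effects passed at 0 of the 22 probe sets, against 0% of all probe sets (limma), with 11 at an unadjusted p under 0.05, against 11.3% of all. The count of 0 depended on single arrays: it was 2 without -/- replicate 1, 5 without -/- replicate 2 and 4 without +/- replicate 2. A comparison of the step from WT to Neo/+ with the step from Neo2/+ to Neo2/Neo, added after these values were seen, also passed at 0 of the 22 (0% of all), with 6 at an unadjusted p under 0.05 (8.23% of all). Both use the arrays on which the genes were chosen, so nothing is read from these counts.

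**Figure D2:**
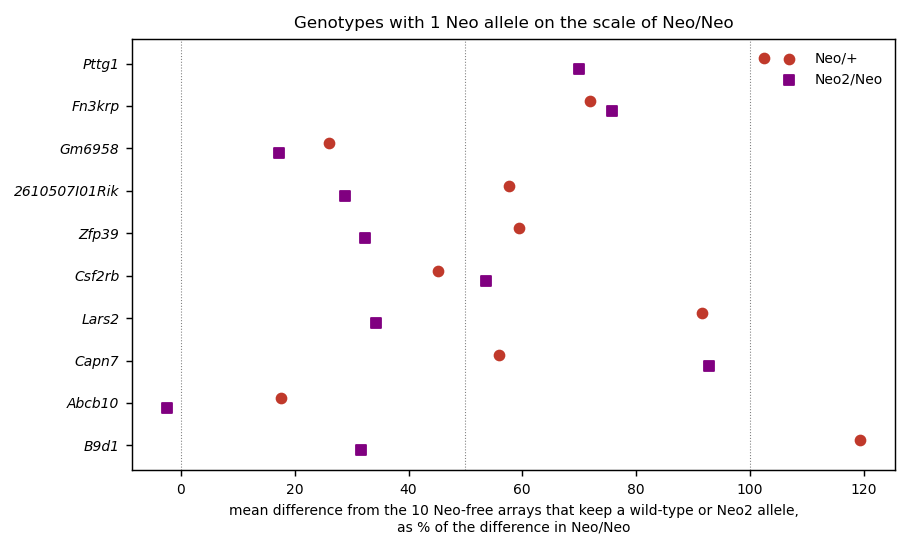
Mean difference of Neo/+ (red circles) and Neo2/Neo (purple squares) from the mean of the 10 arrays without Neo that are not -/-, in percent of the same difference in Neo/Neo (horizontal axis), for the brightest probe set of each gene (vertical axis). Means are of 2 embryos and the dotted lines mark 0, 50 and 100 percent. Gm6958 and Abcb10 sit at the left with Neo/+ at 26.0% and 17.5%, and B9d1 and Pttg1 at the right with 119% and 103%.

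Embryos of -/- carry no Neo allele and have, like Neo/Neo, a Tbx1 signal below the array medians. In -/- against WT, 0 of the 22 passed (limma), against 0.0311% of all probe sets, and 9 had an unadjusted p under 0.05, against 15.1% of all. The differences ran from -1.44 to 0.85, with adjusted p-values from 0.10 to 0.951. The differences depended on which -/- array was used. At the brightest probe sets of Pttg1, Gm6958 and B9d1 they were -0.05, -0.53 and 0.30 without replicate 1. Without replicate 2, which leaves the array that stands apart, they were 0.97, -2.34 and 0.53. That of Csf2rb was -1.22 without replicate 1 and -1.18 without replicate 2. The share of all probe sets called in these fits was not counted, so no calls are read from them.

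Set against the range of the 10 other arrays without Neo, -/- replicate 1 lay outside at 12 of the 22 probe sets, against 37.4% of all probe sets. Replicate 2 lay outside at 3, against 17.1% of all. Replicate 1 lay inside the range of the 6 arrays with Neo at 12 of the 22, and replicate 2 at 4. The share of all probe sets inside that range was not counted, so nothing is read from these counts. Replicate 1 was also the -/- array that stood apart from the series as a whole. Where it lay outside in Pttg1, Gm6958, Capn7 and B9d1, it was on the side of the arrays with Neo. At both probe sets of Zfp39 and both of 2610507I01Rik it lay outside on the side away from them. The 3 probe sets at which replicate 2 lay outside were those of Zfp39 and B9d1, which were above, and a dimmer one of Capn7, which was below. For Zfp39 and Capn7 that is the side away from the arrays with Neo.

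**Figure D3:**
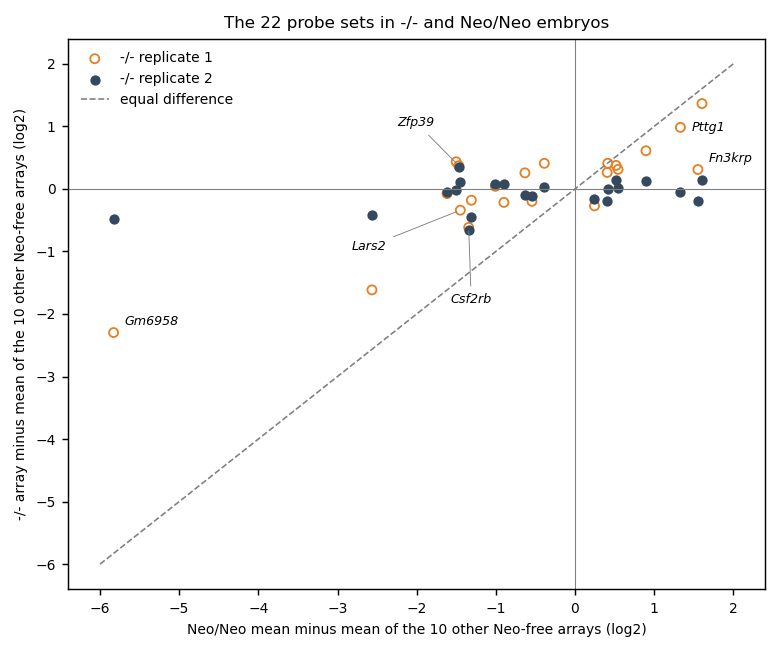
Differences of the 22 probe sets from the mean of the 10 arrays without Neo that are not -/-, in log2 units, with the Neo/Neo mean on the horizontal axis and each -/- array on the vertical axis. Open orange circles are -/- replicate 1, filled dark circles are -/- replicate 2, and the dashed line marks equal differences. Replicate 2 lies between -0.65 and 0.35 at all 22, while replicate 1 reaches 1.36 for Pttg1 and -2.30 for Gm6958.

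The other genotypes without Neo gave few differences. Against WT, 0 of the 22 passed in Neo2/- (0.00222% of all probe sets, limma), in Neo2/Neo2 (0.00222%), in +/- (0%) and in Neo2/+ (0%). At an unadjusted p under 0.05 there were 2, 2, 1 and 2, against 6.28%, 11.6%, 11.7% and 6.51% of all probe sets. The term per Neo2 allele passed at 0 of the 22 (0% of all) with 2 unadjusted (4.8% of all), and the term per null allele at 0 (0.00222% of all) with 4 unadjusted (10.8% of all). The F-test among the 6 genotypes without Neo passed at 0 (0.00888% of all) with 4 unadjusted (13.2% of all), 2 of them of Csf2rb and 1 each of Fn3krp and B9d1. With 1 array left out in turn, the counts of 0 in that F-test and in +/- against WT did not always hold. The share of all probe sets called in those fits was not counted, so nothing is read from this.

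Embryo sex was called from Xist and Y-linked genes, which gave 9 female and 9 male embryos. The pairs of Neo/Neo and of Neo2/Neo2 embryos were male, those of -/- and of WT were female, and each of the 5 other genotypes held both sexes. The sex term passed at 0 of the 22 (limma), against 0.0377% of all probe sets, with 2 at an unadjusted p under 0.05, against 5.01% of all.

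Position in the genome was not used in the choice. Of the 10 genes 5 lie on chromosome 11, in the order Pttg1, Zfp39, 2610507I01Rik, B9d1 and Fn3krp, at positions 220, 376, 384, 436 and 1437 of 1443 measured genes. Capn7 lies on chromosome 14, Csf2rb on 15, Gm6958 on 16, Abcb10 on 8 and Lars2 on 9. Of the 26 named probe sets that passed on the Neo term in the whole table, 10 were on chromosome 11, a share of 38.5%, against 7.84% of all probe sets with a position. Among the 16 that are of other genes, Tbx1 included, 5 were on chromosome 11 (31.3%). These counts rest on few calls: without Neo/Neo replicate 1 there were 3 named calls, 2 of them on chromosome 11 and 0 of those in other genes, and without WT replicate 2 there were 5, with 3 and 1. Over all 18 arrays left out in turn the named calls ran from 3 to 44, those on chromosome 11 from 2 to 17 and those of other genes there from 0 to 12. With array weights 39 of 249 were on chromosome 11 (15.7%).

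Those 5 are probe sets of Ublcp1 (slope -0.69), Pigl (-0.35) and Ndel1 (-1.04), none of them the brightest of its gene, and the brightest ones of Tvp23b (0.32, SE 0.06, adjusted p = 0.0424) and Mxra7 (-0.51, SE 0.08, adjusted p = 0.0164). Ublcp1 has 8 measured genes between it and Pttg1, and Pigl and Tvp23b have 10 and 20 between them and B9d1. Tvp23b was also the gene most like B9d1, at a mean distance of 0.09. On chromosome 9, a probe set of Lztfl1 that is not its brightest passed (-0.60), with 4 measured genes between it and Lars2.

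Most genes of chromosome 11 had slopes near zero. Of 1438 other genes measured on chromosome 11, 2 passed at the brightest probe set, and 96.2% had a slope of at most 0.2 in size, against 95.3% of all genes. Besides Mxra7, a slope over 0.5 in size was seen in 2 of them, Thg1l (1.08, SE 0.25, adjusted p = 0.142) and Mettl23 (-0.57, SE 0.12, adjusted p = 0.0886). Of the 97 genes within 5 places of one of the 10, 0 passed (limma), against 0.066% of all genes, with 14 at an unadjusted p under 0.05 (14.4%, against 6.94% of all genes). Their slopes ran from -0.41 (Csf2rb2) to 0.28 (2810021J22Rik) with a median of 0.01.

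**Figure D4:**
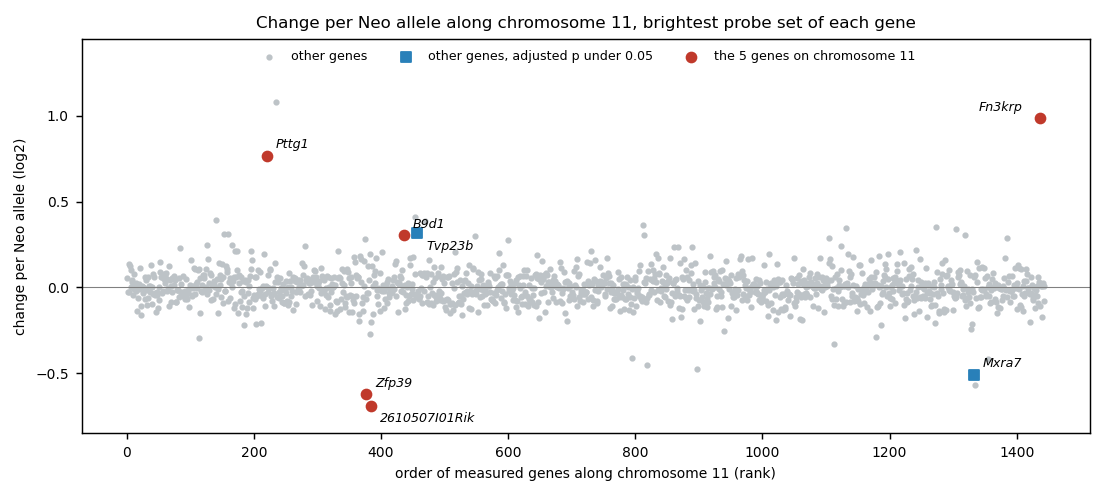
Log2 change per Neo allele at the brightest probe set (vertical axis) of each of the 1443 measured genes of chromosome 11, in gene order (horizontal axis, rank). Red points are the 5 genes described here and blue squares the 2 others that passed. Most genes lie within 0.2 of zero. The 5 were chosen on this slope, so their distance from zero comes with the choice, and both signs are present among them.

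The genes most like each of the 10 over the 18 arrays, by the mean distance between centred signals, were in part each other, which the choice of all 10 on the same arrays brings with it. Fn3krp was nearest to Pttg1 (0.29), Zfp39 to 2610507I01Rik (0.14), and Lars2 to the angiogenin gene Ang (0.20) and then to 2610507I01Rik (0.23). Pttg1 was nearest to Adat2 (0.18) and Rnase4 (0.24), whose slopes of 0.73 and 0.56 did not pass (adjusted p = 0.119 and 0.0507). Capn7 was nearest to Zfpm2 (0.09), B9d1 to Tvp23b and 2810021J22Rik (0.09 each), Abcb10 to Olfml3 (0.18) and Gm6958 to Rmst (0.85). Genes with a small spread have small distances, so the distances are not compared between genes.

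Across the 7 lists of related genes, 0 of 95 measured genes passed as higher and 0 as lower on the Neo term (limma), with 6 at an unadjusted p under 0.05. Across 7 lists of markers (myeloid, primitive erythroid, visceral yolk sac endoderm, placenta and decidua, dividing cells, cardiomyocytes, neural cells) it was 0 and 0 of 58, with 3 unadjusted. The list medians ran from -0.05 to 0.03 and from -0.06 to 0.11.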

How the data were processed

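Per the submitters' processing notes, the deposited log2 probe set values were made by the authors with affy and RMA, which corrects background, equalises arrays by quantile normalization and summarises probes. Their versions, and any filter, were not given in the sources used here. Labelled cRNA came from 6 ug of total RNA per embryo. Values were used as deposited. Symbols came from the platform annotation, with gene order and promoters from RefSeq.

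Probe sets were fitted with limma 3.58.1 in R 4.3.3 (lmFit, eBayes, two-sided), in all 18 arrays, with 9 genotype means (9 residual degrees of freedom) or the numbers of Neo, Neo2 and null alleles (14). A call is a Benjamini-Hochberg adjusted p under 0.05 over 45037 probe sets. The brightest probe set has the highest mean of a gene. The fits were tested on simulated data. The 10 genes, the lists and the tests were chosen with earlier results of these data known. Named genes are the 10, Tbx1, called neighbours, list genes that pass or else have the smallest p, and the 2 most alike. The other called genes and those of large slope on chromosome 11 and beside Lars2 were named after their values were seen. Alternatives were embryo sex, arrays left out, the replicate number, a filter on dim probe sets, centring, array weights, a variance trend, the coding of Neo and the mean of probe sets. The settings for the chromosome 11 counts and the Abcb10 sex difference were chosen after seeing the data. Sex was called from Xist, Eif2s3y, Kdm5d and Uty. The number of arrays limits the precision, and 2 embryos per genotype give a coarse SD.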

Additional observations from a re-analysis of the deposited data

How the results depend on the processing

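The slopes per Neo allele of the 10 genes kept their sign in all 248 values under the alternatives, and 240 stayed within 1 SD of the value given. The other 8 came from coding Neo as present or absent (Pttg1 1.21, Fn3krp 1.44, Lars2 -1.0, Capn7 0.51, B9d1 0.46) or from the mean of all probe sets of a gene (2610507I01Rik -0.47, Zfp39 -0.37, Lars2 -0.35). Departure from additive effects, at 0 member probe sets with all arrays, passed at 2 without both arrays that stand apart and at 4 with array weights. Neighbours called were 0 and 3 with array weights. All probe sets called on the Neo term were 31, with 11 after embryo sex was added, 76 without both arrays that stand apart and 314 with array weights, and the cause was not tested. With 1 array left out in turn, the lowest and highest counts were 0 and 8 in -/- against WT, 0 and 1 in +/- against WT, 0 and 3 in the F-test without Neo, 0 and 5 for departure from additive effects, 0 and 1 for neighbours (1 without Neo/+ replicate 1), and 3 (without Neo/Neo replicate 1) and 52 (without Neo/+ replicate 1) for all probe sets on the Neo term. The count for all probe sets moved by over 1.5 times without either WT array (7 and 5), either Neo2/+ array (18 and 19), +/- replicate 2 (16), Neo2/Neo replicate 1 (19), Neo/Neo replicate 2 (9) or -/- replicate 1 (48). The counts over the 22 probe sets in Neo2/-, Neo2/Neo2 and Neo2/+ against WT and on the Neo2, null and sex terms were 0 in each fit run. With the replicate number as a block, which was not run for sex, the counts over the 22 in the comparisons with WT, the F-test, the departure and the Neo2 and null terms were 0. The calls on the Neo term were then 24, with 9 of the 22 among them. With embryo sex added instead of the block, 4 of the 22 were among the calls, against 10 of the 22 with neither. Without the block these 10 became 2 to 11 with 1 array left out in turn. The numbers do not pair embryos: over 36 pairs of genotypes the correlation of same-numbered deviations ran from -0.26 to 0.19. With an array left out, the share of all probe sets called was not counted for the comparisons with WT, the F-test or the departure. Nothing is read from those counts over the 22.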
